A study of Rattus norvegicus with 8 samples.

Results

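Reg3b (ENSRNOG00000006151) encodes a secreted lectin of the regenerating islet-derived (Reg) family, and its transcript was followed in the dorsal root ganglia (DRG) of male and female rats with and without chronic constriction injury (CCI) of the sciatic nerve. It was 1 of 32623 genes counted and 1 of the 16988 genes with enough counts to be tested. It was chosen for its large change after CCI, so its CCI against naive values describe the gene and are given without a test. The differences between the sexes were tested. The gene was chosen with earlier results of these data known, so these tests are not shown to be independent of the choice.

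The study asked whether nerve injury regulates gene expression differently in the DRG of male and female rats. Adult Sprague Dawley rats of each sex received CCI, in which silk sutures are tied loosely around the sciatic nerve at mid-thigh, or no treatment, and tissue was taken on day 14. Each of the 8 libraries held poly(A) RNA from the ipsilateral L4 to L6 DRG of 1 rat, with 2 naive males, 2 CCI males, 2 naive females and 2 CCI females. The naive rats had no sham surgery, so the CCI comparison contains anesthesia, incision and ligation together, and the stage of estrus was not identified. The whole ganglion was sequenced, so neurons with injured axons, neurons with spared axons, satellite glia, Schwann cells and immune cells share each library. In such bulk tissue, more cells of a type and more RNA per cell cannot be told apart. The libraries were sequenced in a pair of batches without batch correction. The study also resequenced samples of each batch in a shared lane to look for batch effects. Which library belonged to which batch was not given in the sources used here. A part of any group difference that follows the batches therefore cannot be told apart.

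Reg3b, also known in the rat as pancreatitis-associated protein I or Reg-2, is a C-type lectin best known from the inflamed pancreas and from the intestinal epithelium, where it binds bacteria. Sensory and motor neurons, which make little of it in the intact adult, produce it after axonal injury and transport it along the axon, and it acts as a mitogen for Schwann cells. Cytokines of the interleukin-6 (IL-6) family, such as ciliary neurotrophic factor (CNTF) and leukemia inhibitory factor (LIF), are known to induce it through the gp130 receptor, JAK kinases and the transcription factor STAT3.

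Because the gene is known as a target of STAT3, the 250 bases before its transcription start are shown, taken from the RefSeq promoter table for the GRCr8 assembly, at chr4:112419526-112419775 on the plus strand. The count table was made on the older rn6 assembly, and the window was not used for any count. The first run of capitals marks the match to the STAT motif TTCNNNGAA and the second marks a TATA box.
Reg3b promoter: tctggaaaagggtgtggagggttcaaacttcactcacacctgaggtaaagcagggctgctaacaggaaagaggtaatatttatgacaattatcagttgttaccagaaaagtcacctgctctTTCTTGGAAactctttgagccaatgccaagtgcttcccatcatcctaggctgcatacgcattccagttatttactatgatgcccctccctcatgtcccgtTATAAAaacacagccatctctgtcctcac

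Both strands were searched for 4 motifs. The STAT match, TTCTTGGAA, lay 129 to 121 bases before the start, and 7.67% of 33465 promoter windows of the same length held a match to TTCNNNGAA. TATAAA lay 29 to 24 bases before the start, the usual position of a TATA box, and 12.9% of windows held it somewhere. The AP-1 motif TGANTCA, present in 6.34% of windows, and the cyclic AMP response element TGACGTCA, present in 1.59%, had no match in the Reg3b window. Among the related genes Reg1a, Reg3a, Reg3g and Reg4, the Reg1a window alone also held TTCNNNGAA, and those of Reg1a and Reg3g held TATAAA. A match is a string of letters and not a measured binding site.

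Reg3b RNA was low but counted in every naive library. The naive males held 47 and 30 Reg3b reads, which gave 0.899 and 0.550 CPM, the read count scaled to library size after TMM normalization (95% Poisson intervals 0.660 to 1.19 and 0.371 to 0.785). The naive females held 35 and 21 reads, or 0.740 and 0.496 CPM (0.515 to 1.03 and 0.307 to 0.759). Within each sex the naive intervals overlapped, and the ranges of the naive sexes overlapped as well. These intervals cover counting error only, and the totals behind them ran from 39489103 to 60818457 counts a library.

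After CCI every library held Reg3b at a level far above every naive library. The CCI males held 1180 and 901 reads, or 20.2 and 18.6 CPM (95% Poisson intervals 19.1 to 21.4 and 17.4 to 19.8). The CCI females held 1563 and 1367 reads, or 40.4 and 35.0 CPM (38.4 to 42.4 and 33.1 to 36.9). The 4 groups therefore fell into 3 levels, with both naive groups at the bottom, the CCI males in the middle and the CCI females at the top, and the 2 CCI groups did not overlap. The first rat exceeded the second by 1.63 times in naive males, 1.09 times in CCI males, 1.49 times in naive females and 1.15 times in CCI females, so the relative spread was wider at the low naive level.

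**Figure D1:**
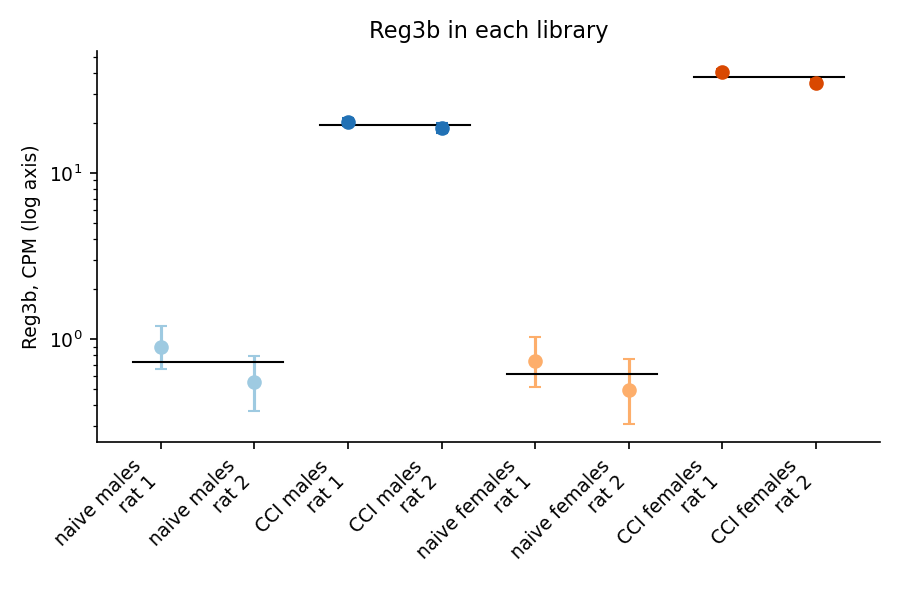
Reg3b in each of the 8 libraries, in TMM-normalised CPM on a log axis, with points for single rats, vertical bars for 95% Poisson intervals and horizontal lines for group means. The 4 naive libraries lie between 0.496 and 0.899 CPM, the CCI males at 18.6 and 20.2 CPM, and the CCI females at 35.0 and 40.4 CPM.

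In males the mean rose from 0.724 ± 0.246 to 19.4 ± 1.15 CPM (SD, n = 2 rats each), a fitted log2 fold change (log2FC) of 4.75 (SE 0.245), or 26.9-fold. In females it rose from 0.618 ± 0.172 to 37.7 ± 3.83 CPM (SD, n = 2 rats each), a log2FC of 5.90 (SE 0.184), or 59.8-fold. The mean over both sexes was 5.33 (SE 0.165), or 40.2-fold. These changes chose the gene and are not evidence of their own.

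Reg3b stood near the top of both rankings by log2FC. In males it was 24th of 16988 genes, and 22 of the 23 genes above it had a mean level under 1 on the log2 CPM scale, with 17 of them at 3 counts or fewer in every naive male library. In females it was 20th, and all 19 genes above it had a mean level under 1, with 15 of them at 3 counts or fewer in every naive female library. That mean is over all 8 libraries, so the CCI values by which the gene was chosen enter it. Reg3b itself was under 1 in every naive library and reached the level through its CCI libraries. Among the 13083 genes at or above that level, Reg3b came second in males, after Vip, and first in females. These positions describe the gene and are no evidence of their own. Vip encodes vasoactive intestinal peptide, a neuropeptide of injured sensory neurons, and its log2FC was 5.65 (SE 0.255) in males and 5.62 (SE 0.165) in females. The position of Reg3b thus depends on whether genes with a low mean level over the 8 libraries are ranked with it.

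The genes around Reg3b in the 2 rankings were partly shared. Symbols from the study's own tables were used for 1958 tested genes (11.5%), and genes without one are not described. Some of these tables list genes that the study called in the same libraries, so having a symbol depends in part on these values. In males the named genes above Reg3b were Crisp3 (a cysteine-rich secretory protein), Vip, Crh (corticotropin-releasing hormone), Mb (myoglobin) and Serpina3n (a secreted serine protease inhibitor), with log2FC from 6.72 down to 4.95, and the next below was Stac2 at 4.59 (SE 0.108). In females they were Il24 (a cytokine of the IL-10 family), Serpina3n, Vtcn1 (an immune checkpoint ligand), Crisp3 and Cldn4 (a tight junction protein), and the next below was Vip. Several of these started from almost nothing. Il24 had 0 counts in both naive females and 58 and 67 in the CCI females. Vtcn1 had 2 and 0 counts in naive females and 189 and 159 in CCI females.

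The named genes with the largest changes did not all move in both sexes. Crh was at 0.0765 and 0.110 CPM in naive males and 3.99 and 3.84 CPM in CCI males, but the 2 libraries of each female group disagreed, with 0.127 and 2.62 CPM in naive and 5.56 and 0.154 CPM in CCI females. Mb was at 4.90 and 4.68 CPM in CCI males and at no more than 0.281 CPM in any other library. Tnni2, a fast skeletal muscle troponin, was also highest in the CCI males, at 14.5 CPM in both, against 0.207 and 1.28 CPM in the CCI females. Reg3b was higher in both CCI libraries than in both naive libraries of each sex, which Crh and Mb were not in females. Reg3b was chosen for its change after CCI, so this order only describes it. Stac2, Vip and Serpina3n showed the same order.

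**Figure D2:**
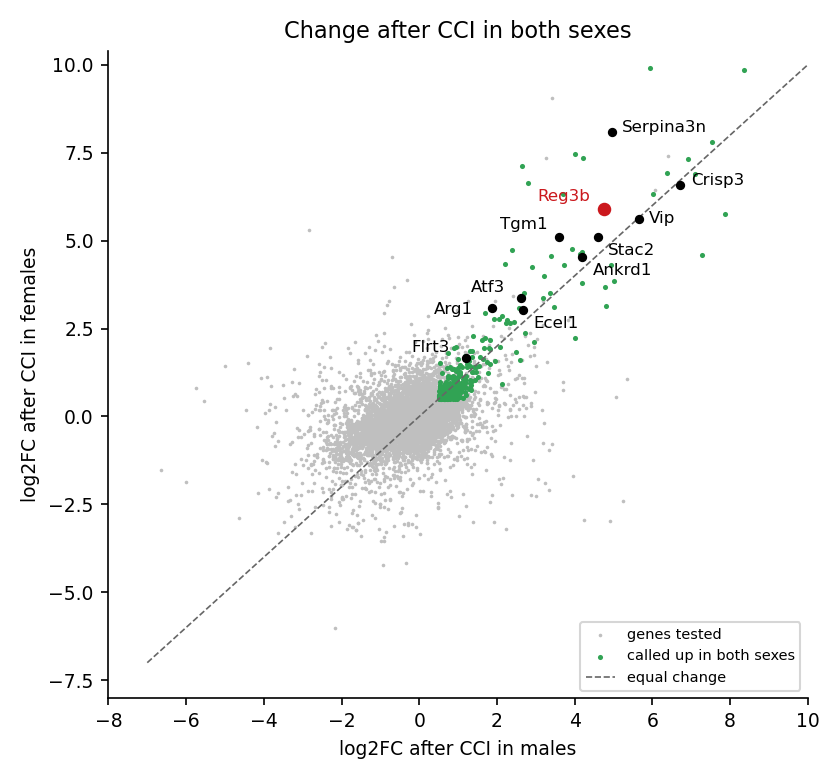
Log2FC after CCI in males (horizontal) against females (vertical) for the 16988 genes tested, with the 397 genes called up in both sexes in green, Reg3b in red, named genes in black and a dashed line of equal change. Reg3b lies above the line, at 4.75 in males and 5.90 in females, beside Stac2 and below Serpina3n in females.

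Between the sexes, Reg3b was higher in CCI females than in CCI males. The log2FC was 0.96 (SE 0.0958, 95% interval 0.73 to 1.20), or 1.95-fold (1.65 to 2.29), and it passed the edgeR quasi-likelihood test with an adjusted p of 0.0159 over all 16988 genes. In that comparison 0.524% of genes tested were called higher in females, a call being an adjusted p under 0.05 with an absolute log2FC above 0.5. Both CCI females lay above both CCI males, an order that 24.7% of all genes tested also showed. With 2 rats a group an exact permutation test cannot give a two-sided p under 0.333, so the call rests on the spread modelled across genes. The call was lost when either CCI female was left out, with log2FC of 0.86 (adjusted p = 0.129) without rat 1 and 1.06 (adjusted p = 0.0665) without rat 2, and also in a fit over all 8 libraries (0.96, adjusted p = 0.0540).

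In naive rats no difference between the sexes was detected at this depth. The log2FC of naive females against naive males was -0.22 (SE 0.421, 95% interval -1.30 to 0.86), a ratio of 0.858 with an interval from 0.407 to 1.81, and the adjusted p was 0.773. The naive groups held 21 to 47 reads a library, and the interval is wide enough to hold a difference of nearly the size seen after CCI. In this comparison 0.0706% of genes tested were called in either direction.

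Whether the change after CCI itself differed between the sexes was tested as an interaction over all 8 libraries, a contrast that is orthogonal to the mean change the gene was chosen by. The increase was larger in females by 1.17 on the log2 scale (SE 0.329, 95% interval 0.41 to 1.94), and the adjusted p of 0.0953 missed the threshold in edgeR, where 1.59% of genes were called in either direction. The same term passed with DESeq2 (1.16, adjusted p = 0.0112) and with no filter on low counts in edgeR (1.15, adjusted p = 0.0377). The estimate had the same direction with each of the 8 libraries left out, from 0.78 to 1.5, and passed in none of these fits.

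Reg3b was set beside the genes that rose in both sexes. Of the 397 genes called up in both (2.34% of genes tested), 178, or 44.8%, had a larger log2FC in females, against 51.5% of all genes tested, and their median interaction was -0.04 against 0.02. The interaction exceeded that of Reg3b in 15 of the 397 (3.78%) and in 4.29% of all genes tested. It was called in 2 of the 397 (0.504%), against 1.59% of all genes. In level after CCI, 255 of the 397 (64.2%) were higher in females, against 50.6% of all genes tested, with a median log2FC of 0.09 against 0.00281. The 397 were chosen by calls that use these same CCI libraries, so all genes tested are no independent background for these shares. Of the 397, 13 were called higher in CCI females, where 0.524% of all genes tested were, and 2 higher in CCI males, where 0.536% were. The log2FC between CCI sexes exceeded that of Reg3b in 13 of them (3.27%) and in 2.34% of all genes tested.

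The genes whose levels followed Reg3b most closely over the 8 libraries were named by Pearson r of log2 CPM, as a description. The 8 libraries fall into 4 naive and 4 CCI libraries, so r is high for most genes that rise strongly in both sexes, and 370 genes (2.18% of those tested) reached an r of 0.95, of which 26 had a symbol. The 8 named genes with the highest r were Stac2 and Ankrd1 (0.995 each), Atf3 (0.993), Ecel1, Flrt3 and Tgm1 (0.990 each), Crisp3 (0.987) and Arg1 (0.985), and Spearman's rho for them ran from 0.810 to 0.976. Stac2 encodes an adaptor that binds voltage-gated calcium channels. Ankrd1 is an ankyrin repeat protein of the nucleus and sarcomere, and Atf3 is a transcription factor widely used to mark injured neurons. Ecel1 is a membrane metalloprotease made by damaged neurons, Flrt3 a membrane protein of axon guidance, Tgm1 a transglutaminase and Arg1 arginase 1, an enzyme of arginine breakdown.

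Stac2, the closest of them, showed the same 3 levels as Reg3b. It was at 0.937 and 1.03 CPM in naive males, 23.3 and 24.0 CPM in CCI males, 1.48 and 0.922 CPM in naive females and 43.0 and 41.5 CPM in CCI females. The ratio of Reg3b to Stac2 CPM, which also carries the lengths of both genes and is compared only between libraries, was 0.959 and 0.536 in naive males, 0.5 and 0.538 in naive females, 0.867 and 0.774 in CCI males and 0.939 and 0.842 in CCI females. The naive and CCI ranges overlapped only through naive male 1, and the other 3 naive ratios lay below all 4 CCI ratios. Atf3 had more reads and a smaller change. It was at 11.7 and 11.0 CPM in naive males, 67.7 and 70.9 CPM in CCI males, 12.7 and 11.8 CPM in naive females and 122 and 133 CPM in CCI females. The ratio of Reg3b to Atf3 therefore moved with injury, from 0.0422 to 0.0765 in the naive libraries to 0.262 to 0.330 in the CCI libraries. In the CCI libraries that ratio was 0.299 and 0.262 in males and 0.330 and 0.263 in females, so on the scale of Atf3 the sexes overlapped. They also overlapped on the scales of Stac2, Ankrd1, Tgm1, Crisp3 and Arg1. On the other scales the CCI females lay above the CCI males. The ratio of Reg3b to Flrt3 was 0.268 and 0.257 in CCI males and 0.403 and 0.347 in CCI females. For Ecel1 it was 2.57 and 2.69 in CCI males and 3.20 and 2.77 in CCI females.

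**Figure D3:**
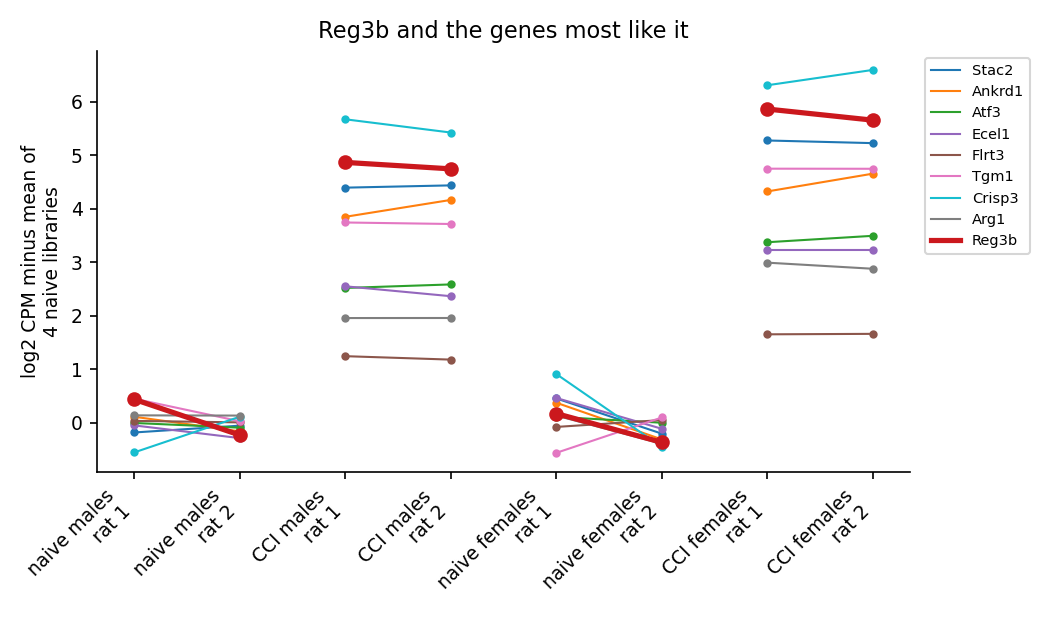
Log2 CPM of Reg3b (thick red) and the 8 named genes most like it in each library, as the difference from the mean of the 4 naive libraries, with lines joining the 2 rats of a group. All 9 genes are higher in the CCI libraries, and Reg3b rises more than each of the others except Crisp3.

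All 8 of these genes also had a higher mean in CCI females than in CCI males. The ratio of mean CPM, females over males, was 2.03 for Tgm1, 1.98 for Arg1, 1.94 for Reg3b, 1.88 for Crisp3, 1.84 for Atf3, 1.79 for Stac2, 1.71 for Ecel1, 1.40 for Ankrd1 and 1.36 for Flrt3. Genes were chosen as like Reg3b over libraries that include these, so a shared direction is part of the choice. No test of it is given for them here.

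A list of 40 genes known from regenerating sensory neurons was set beside Reg3b, and 24 of them had an identifier with a symbol and were tested. These symbols come from tables that include the study's lists of genes called different between the sexes or after CCI in these same libraries. Which of the 40 could be counted thus depends in part on these same values. The counts below, set beside all genes, are no independent evidence of a direction or of a difference between the sexes. After CCI 23 of the 24 were called up in males, where 9.05% of all genes tested were, with a median log2FC of 1.84 against -0.01 over all genes. Without CCI male 1 no gene of the table was called in males, and the count of the list went from 23 to 0, with an adjusted p of 0.0502 for Atf3 and Stac2 in edgeR. In females 21 were called up, where 3.69% of all genes tested were, with a median of 1.77 against -0.02. None was called down in either sex by edgeR, with 0 below an unadjusted 0.05 in that direction. Itga7, an integrin subunit of growing axons, was the exception in males (0.03, adjusted p = 0.796), and Nts (neurotensin), Crh and Nrcam, a neuronal adhesion molecule, did not pass in females. Only Serpina3n, Vip and Crh exceeded the log2FC of Reg3b in males, and only Serpina3n in females.

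For Serpina3n the 2 CCI females lay apart. It was at 0.249 and 0.165 CPM in naive males, 6.15 and 6.73 CPM in CCI males, 0.106 and 0.0709 CPM in naive females and 13.4 and 37.4 CPM in CCI females. Its log2FC between CCI females and CCI males was 1.99 (SE 0.449), and it did not pass (adjusted p = 0.108 in edgeR). Vip was at 11.4 and 10.5 CPM in CCI males and 27.0 and 26.5 CPM in CCI females, a log2FC of 1.29 (SE 0.0803) with an adjusted p of 0.00369 in edgeR. With either CCI female left out Vip lost the call, at a log2FC of 1.28 without rat 1 and 1.31 without rat 2. Its naive levels lay in the same order, 0.268 and 0.165 CPM in males and 0.465 and 0.615 CPM in females, which did not pass (1.31, adjusted p = 0.174), and its interaction was -0.02 (adjusted p = 0.967).

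After CCI, 20 of the 24 regeneration genes had a higher fitted level in females, with a median log2FC of 0.43, and 8 were called, where 0.524% of all genes were. The 8 were Atf3, Gal, Vip, Csf1, Ecel1, Stac2, Tgm1 and Arg1, and edgeR called none higher in males, with 3 below an unadjusted 0.05 in that direction. The count of 8 was 2, with 1 called higher in males, without CCI female 1, and 0 without CCI female 2. Both CCI females lay above both CCI males for 19 of the 24, against 24.7% of all genes tested. As the symbols come in part from the study's lists of genes called between the sexes, these shares are no independent background. Gal encodes the neuropeptide galanin (1.22, adjusted p = 0.0211 in edgeR) and Csf1 the macrophage growth factor that injured neurons release (0.59, adjusted p = 0.0422). The log2FC of Reg3b, 0.96, was exceeded by Serpina3n, Vip, Gal, Tgm1 and Arg1.

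**Figure D4:**
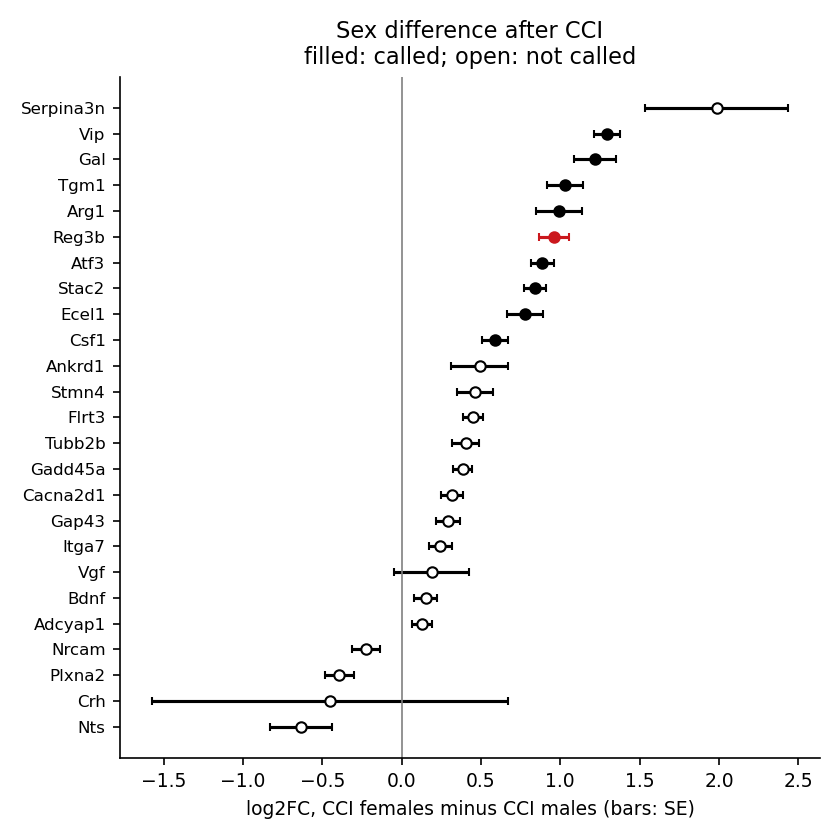
Log2FC of CCI females against CCI males for Reg3b (red) and the 24 regeneration genes, ordered by size, with bars for the SE, filled points for genes called and open points for genes not called. Reg3b at 0.96 lies sixth from the top, and 4 of the 24 genes lie under 0.

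For the interaction, 3 of the 24 were called with a larger rise in females, where 1.04% of all genes were, and 1 with a larger rise in males, where 0.547% were. The 3 were Atf3 (0.78, SE 0.111, adjusted p = 0.0412), Csf1 (0.64, adjusted p = 0.0496 in edgeR) and Itga7 (0.61, adjusted p = 0.0483), and the other was Nts (-1.71, adjusted p = 0.0483). None of the 24 was called when any library but naive male 2 or naive female 2 was left out. The median interaction of the list was 0.28 against 0.02 over all genes. Serpina3n, Tgm1 and Arg1 exceeded the 1.17 of Reg3b without a call.

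The members of the pathway known to induce Reg3b could be described only in part, because few had a symbol. Of 10 IL-6 family cytokines, only Cntf is described. Cntf, a cytokine of Schwann cells, was at 133 and 101 CPM in naive males and 75.2 and 67.1 CPM in CCI males, and it fell by 0.71 on the log2 scale (adjusted p = 0.0181 in edgeR). In females it was at 182 and 146 CPM in naive and 153 and 135 CPM in CCI libraries, a log2FC of -0.20 that did not pass (adjusted p = 0.319). Between the CCI sexes Cntf was higher in females by 1.02 (SE 0.0896, adjusted p = 0.0102), a call lost without either CCI female (adjusted p up to 0.127). Naive females were higher by 0.49 (adjusted p = 0.171), and the interaction of 0.53 did not pass (adjusted p = 0.193). The fall in males was lost without either CCI male (adjusted p up to 0.0967).

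Of 8 receptors of the IL-6 family, Lifr and Il27ra were named. Lifr, the receptor chain for LIF and CNTF, rose in both sexes, from 241 and 259 to 489 and 475 CPM in males (0.95, adjusted p = 0.00565 in edgeR) and from 283 and 313 to 463 and 512 CPM in females (0.70, adjusted p = 0.00661). The female call was lost without either CCI female (adjusted p up to 0.118). Its CCI levels in the 2 sexes overlapped, and its interaction of -0.24 did not pass (adjusted p = 0.267). Il27ra, a receptor subunit for interleukin-27, was called up in females (1.59, adjusted p = 0.0266) from 0.930 and 0.898 to 2.07 and 3.50 CPM, a call lost without either CCI female (adjusted p up to 0.257). Its CCI males were apart from each other, at 2.0 and 0.433 CPM.

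Of 26 JAK and STAT pathway genes, Jak3, Stat6, Socs2 and Socs3 were named. Socs3, the feedback inhibitor that STAT3 induces, was at 5.33 and 5.47 CPM in naive males and 5.50 and 5.45 CPM in CCI males, and it did not pass (0.02, adjusted p = 0.900 in edgeR). In females it rose from 2.98 and 2.91 to 8.14 and 6.32 CPM (1.29, adjusted p = 0.00873), and its interaction of 1.28 was called (adjusted p = 0.0483). The female call was lost without either CCI female (adjusted p up to 0.0900), and the interaction call without any 1 of the 8 libraries. The naive females lay under the naive males for Socs3, and the sex difference after CCI, 0.41, did not pass (adjusted p = 0.274). Socs2, a related inhibitor, fell by 0.80 on the log2 scale in males (adjusted p = 0.00565), and its -0.44 in females did not pass (adjusted p = 0.104). Jak3 and Stat6 were not called in either sex. Of 10 genes of the Reg receptor and interleukin-22 and interleukin-17 route, which induces Reg3b in gut and skin, only Il17rc, a receptor chain for interleukin-17, was named. It fell by 1.14 in males (adjusted p = 0.00626), and its -0.65 in females did not pass (adjusted p = 0.0869).

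**Figure D5:**
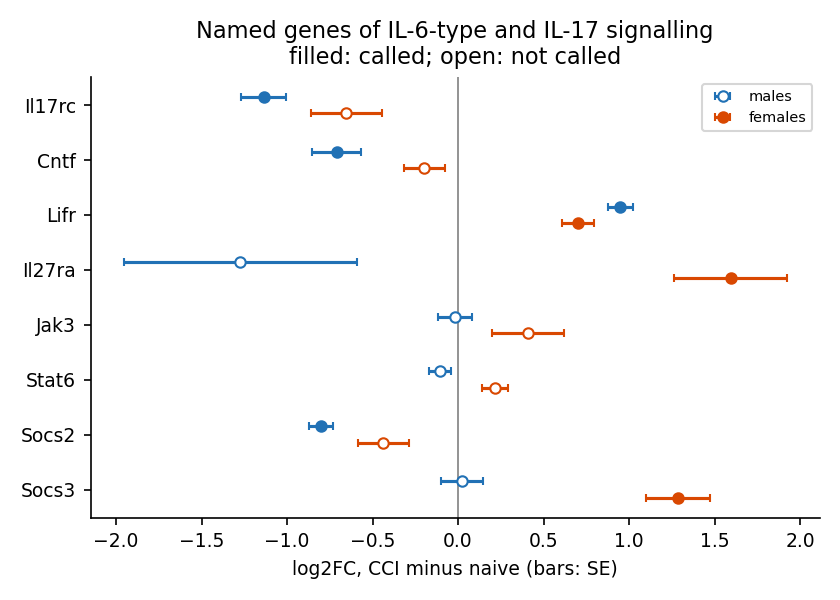
Log2FC after CCI in males (blue) and females (orange) for the 8 named genes of the IL-6 family, JAK and STAT, and interleukin-17 lists, with bars for the SE, filled points for genes called and open points for genes not called. Lifr alone is called up in both sexes, and Socs3 lies at 0.02 in males and 1.29 in females.

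RNA of cell type markers differed between the groups, and whether cell numbers or RNA per cell differed cannot be told apart. Which markers were named follows the symbols, and so depends in part on the study's calls in these libraries. Of 19 sensory neuron markers 8 were named, among them Calca, Tac1, P2rx3 and the neurofilaments, and each was at 179 CPM or more in every library. Their summed level was 18268 and 20644 CPM in naive males, 29739 and 30565 CPM in CCI males, 22471 and 23146 CPM in naive females, and 23342 and 27765 CPM in CCI females. In males 7 of the 8 were called up, where 9.05% of all genes were, falling to 2 without CCI male 2 and 0 without CCI male 1. In females, where 3.69% of all genes were called up, edgeR called 0 of them (2 below an unadjusted 0.05), and between the CCI sexes 0 (3 below an unadjusted 0.05, each lower in females).

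Markers of other cells also differed between the CCI sexes. The 5 named Schwann cell markers of 9 (Mbp, Mag, Sox10, Ncmap and Prx) were all called down in males, where 12.5% of all genes were, and 2 of them in females, where 2% were. Both counts went to 0 with 1 library left out, CCI male 1 in males and CCI female 2 in females. Their summed level was 9819 to 11980 CPM in naive males, 2913 to 3038 CPM in CCI males, 6623 to 8258 CPM in naive females and 3559 to 4672 CPM in CCI females, and Ncmap and Prx were called higher in CCI females than in CCI males, which 0 were without either CCI female. Over all genes tested, 0.524% were called higher in CCI females than in CCI males. All 5 Schwann cell markers had a positive interaction at an unadjusted p under 0.05 in edgeR, with a median of 0.98. Mag (1.03), Sox10 (0.72) and Prx (1.17) were called for it, where 1.04% of all genes tested were called in that direction. Reg3b had 1.17 without a call. None of these calls held when any library but naive male 2 or naive female 2 was left out. Cd163, the 1 named macrophage marker of 10, was at 1.54 and 1.90 CPM in CCI males and 5.71 and 5.96 CPM in CCI females, a called difference of 1.77. It was at 2.08 and 2.15 CPM in naive males and 3.64 and 5.25 CPM in naive females, a difference of 1.07 that was not called. Its interaction of 0.69 did not pass (adjusted p = 0.213 in edgeR). Fabp7, the 1 named satellite glia marker of 5, was called down in both sexes. The 6 red blood cell genes summed to 128 and 1370 CPM in naive males, 248 and 219 CPM in CCI males, 1335 and 2005 CPM in naive females and 165 and 210 CPM in CCI females. Whether these marker differences play a part in the Reg3b level was not tested. Markers of exocrine pancreas and intestine, the other tissues known for Reg3b, had no symbol in the tables and are not analysed here.

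Reads of Reg3b could be shared with close relatives. RefSeq places Reg1a, Reg3a, Reg3g and a Reg3b pseudogene on the same chromosome, and none of them had a symbol here. How reads that match more than 1 of them were counted was not given in the sources used here, so the level of Reg3b carries that uncertainty in every library.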

How the data were processed

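Poly(A) RNA from L4 to L6 DRG of 8 rats (2 per group) was sequenced as strand-specific paired-end libraries. Per the study's methods and the submitters' processing notes, reads were processed with CASAVA 1.8.2 and HISAT2 on rn6 and counted per Ensembl gene with featureCounts. The authors deposited raw counts per gene. Symbols came from the study's tables (1959 identifiers), whose fold changes and p-values were not used, though some of them list only genes the study called. Genes passing filterByExpr over 8 libraries (minimum count 10, minimum total 15) were fitted with edgeR 4.0.16 (R 4.3.3) after TMM normalization, each comparison on its own 4 libraries and the interaction on all 8, with Benjamini-Hochberg adjustment. The study used DESeq2, here an alternative (1.42.0). Log2 CPM used a prior count of 2. Calls needed an adjusted p under 0.05 and, outside the interaction, an absolute log2FC above 0.5. Named genes were Reg3b, the 8 named genes most like it, the 5 named genes with the largest log2FC in each sex and those next to Reg3b, the ends of the regeneration list and the named pathway genes. Marker genes, called regeneration genes and genes that exceeded Reg3b were named besides. The gene and all lists were chosen with earlier results of these data known. No source used here says that replicate numbers pair rats. The male rat 1 columns of both groups share a suffix whose meaning was not given. P-values rest on the spread between single rats, estimated with information shared across genes. Scripts were tested on simulated data. Other normalizations, filters, a replicate block and leaving out each library were tried. Some genes are not reported here. The promoter is from RefSeq (GRCr8).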

Additional observations from a re-analysis of the deposited data

Results flagged for a closer look

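The interaction term in edgeR was called for 8 listed genes. Over all genes tested 1.59% were called, 1.04% with a larger log2FC in females and 0.547% with a larger one in males. Which listed genes had a symbol depends in part on the study's calls in these libraries, so the count is no independent evidence. The log2FC was larger in females for Socs3 (1.28), Prx (1.17), Mag (1.03), Atf3 (0.78), Sox10 (0.72), Csf1 (0.64) and Itga7 (0.61), and larger in males for Nts (-1.71). Reg3b itself (1.17) missed the threshold. With 1 library left out, the call was lost in 8 of 8 fits for Socs3, in 7 of 8 for Csf1, Itga7, Mag and Nts, and in 6 of 8 for Atf3, Sox10 and Prx.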

How the results depend on the processing

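The log2FC of Reg3b after CCI kept its direction in every fit, from 4.43 to 5.13 in males and from 5.66 to 6.22 in females with 1 library left out, the highest being without naive male 1 and naive female 1. Its rank ran from 1st (at least 10 counts in every library) to 142nd (no filter) in males and from 1st to 30th in females. Between the CCI sexes it was 0.86 to 1.06 with 1 library left out, and 0.96 with adjusted p = 0.0540 over all 8 libraries. Between naive sexes it ran from -0.53 to 0.17, turning positive without naive male 1 (0.17) or naive female 2 (0.05), and DESeq2 gave no adjusted p there. The interaction passed with DESeq2 (1.16) and with no filter (1.15), and ran from 0.78 to 1.5 with 1 library left out. With 1 CCI or naive rat in a group, that rat is assumed to vary like the others.

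Counts of called genes moved more. With 1 library left out they ran from 0 (without CCI male 1; 6494 genes at unadjusted p under 0.05 in edgeR) to 3722 in males, from 84 to 1836 in females, from 32 to 656 between CCI sexes, from 6 to 327 between naive sexes and from 0 to 563 for the interaction. The 0 for the interaction came without naive male 1, CCI male 2 or CCI female 2, with 2728, 3147 and 3887 genes at unadjusted p under 0.05. Between CCI sexes 180 genes were called, 394 with DESeq2 and 297 with no filter. Between naive sexes 12 were called, 996 with DESeq2, 262 with no filter, 1 with at least 10 counts in every library and 906 over all 8 libraries. For the interaction 270 were called, 1618 with DESeq2, 1032 with no filter and 532 with at least 10 counts in every library. The cause was not tested. Another quasi-likelihood version of edgeR, tried after the data were seen, changed no call of Reg3b.

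With replicate number as a block, 68 genes were called between CCI sexes and 6 between naive sexes, and no call of Reg3b changed (0.96 between CCI sexes, adjusted p = 0.0352). Same-numbered libraries deviated together in males across injury (correlation 0.73) and not in females (-0.00788), with 2 pairs each.

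Of the 8 genes most like Reg3b, 3 stayed among the 8 by Spearman's rho, 4 by Euclidean distance and 4 to 8 with 1 library left out. Of 1020 alternative values for 26 named genes, 893 kept direction and call, 88 lost a call, 30 gained one and 9 turned direction. Those that turned were Socs3 in males (-0.00314 with at least 10 counts in every library, and -0.00133 to 0.0408 with 1 library left out), Itga7 in males (-0.0501 to 0.10), Crh (-3.12 to 4.46) and Mb (-1.06 to 1.32) in females, and the Vip interaction (-0.40 to 0.29).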
